A study of Mus musculus with 6 samples.

Results

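The Btg and Tob genes encode small antiproliferative proteins, and they were followed here in the brain of newborn mice given ethanol, together with the deadenylases to which their products bind. The 8 genes were taken by name: Btg1, Btg2, Btg3, Btg4, Tob1 and Tob2 of the family, and the deadenylase genes Cnot7 and Cnot8. Of these 8, 7 are among the 19938 genes that have a probeset the platform annotation pairs with that gene alone, and 6 were tested. The 2 probesets of Btg3 also match Gm7334, so Btg3 is given no value. The family was selected on its name and on the earlier-known ethanol-saline change of Btg2, and a gene's probeset was chosen by its highest mean level over all 6 arrays, so these values are given as description. Btg4 had a mean of 5.10 on the log2 scale, below the limit of 5.555 that set aside the dimmest 25% of genes. Tob2, at 6.25, was the dimmest of the 6 members tested.

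Brains, whole, of male pups of the inbred strain C57BL/6J at 7 days of age were compared between pups given ethanol and littermates given vehicle. Ethanol pups received 2 subcutaneous injections of 2.5 g/kg ethanol, as a 20% solution in 0.15 M saline, 2 h apart, and control pups received the saline alone. All brains were collected 4 h after the first injection, and no group carried a transgene or mutation according to the labels. Each array held RNA pooled from 3 males of different litters, so that an array reports on a pool and not on a single pup, and 18 mice gave 2 ethanol arrays (numbered 2 and 4) and 4 saline arrays (1, 3, 5 and 6). Levels are log2 intensities, and a change is the ethanol mean less the saline mean on that scale. In whole tissue, fewer cells of a type and less RNA per cell cannot be told apart.

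Proteins of this family share a conserved amino-terminal domain that docks onto Cnot7 and Cnot8, the Caf1-type catalytic subunits of the Ccr4-Not complex. Ccr4-Not shortens the poly(A) tails of messenger RNAs, the step that usually starts their decay, and Btg and Tob proteins bring it to its targets or raise its activity. In the developing brain Btg2 is known as an early-response gene and p53 target that marks neural progenitors about to produce neurons, and it is also active in the granule cell precursors of the postnatal cerebellum.

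Across the 14953 tested genes, which are not independent replicates, the correlation between any 2 arrays was 0.995 to 0.999. Saline array 3 was the outlying array, at 13.5 on the leading principal component (40.9% of the variance) where the others lay between -7.49 and 2.95. All 6 neuronal and all 6 astrocyte markers read lay above the 95th percentile of olfactory and vomeronasal receptor genes (6.21 on the log2 scale). This value serves as a guide to background. Of liver and skeletal muscle genes listed as absent from brain, Alb (5.13), Fgb (5.48), Myh1 (4.89) and Mylpf (4.605) lay below it. Apoa2 (6.35), Ckm (6.40) and Acta1 (7.105), from the same lists, lay above it. Pituitary markers were dimmer in sum with ethanol: the summed linear intensity of the 8 listed genes was 431 to 675 on the ethanol arrays and 773 to 967 on the saline arrays. Of 5 tested, 0 lay above a change of 0, none had a limma adjusted p under 0.05, and Prl, Pomc and Tshb were dim. At an unadjusted limma p under 0.05, 4 of the 5 were lower, where 8.44% of all tested genes were. The largest falls were those of Gh (-1.52 ± 0.38) and Cga (-1.20 ± 0.21). Gh read 7.65 on ethanol array 2 and 5.72 on array 4, and Cga 7.19 and 6.055. Ghrhr had -0.16, and Fshb (-0.17) and Lhb (-0.02) lay below the background guide. The part of the pituitary genes in the results below was not tested.

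Btg2 rose in the ethanol brains and no other tested member passed the test. The ethanol arrays, 2 and 4, read 8.44 and 8.38, whereas saline arrays 1, 3, 5 and 6 read 7.81, 7.79, 7.89 and 7.86. Both ethanol arrays lay above every saline array, with a gap of 0.49 between the nearest arrays of both groups, against a range of 0.10 among saline arrays and 0.07 between the ethanol arrays. The mean went from 7.84 ± 0.05 (SD, n = 4) to 8.41 ± 0.05 (SD, n = 2), an increase of 48.6%. The log2 change was 0.57 ± 0.06 (SE) with a 95% interval of 0.44 to 0.70 (limma adjusted p = 0.00211, adjusted over all tested genes), and Btg2 ranked 9 of 14953 genes by size of rise. An exact permutation of the 6 array labels gave p = 0.0667 (two-sided), the smallest that 15 ways of choosing 2 of 6 arrays allow. Of all tested genes 0.0803% passed this test, 0.0602% higher and 0.0201% lower with ethanol, and Btg2's call was known when the family was chosen, so nothing is read from 1 call among 6 tested members. With either ethanol array left out the change was 0.54 or 0.60 and the limma adjusted p stayed at 0.0472 and 0.0457. Without saline array 3 it was 0.55 (0.0105). With no variance shared between genes, the limma adjusted p of Btg2 was 0.269.

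**Figure D1:**
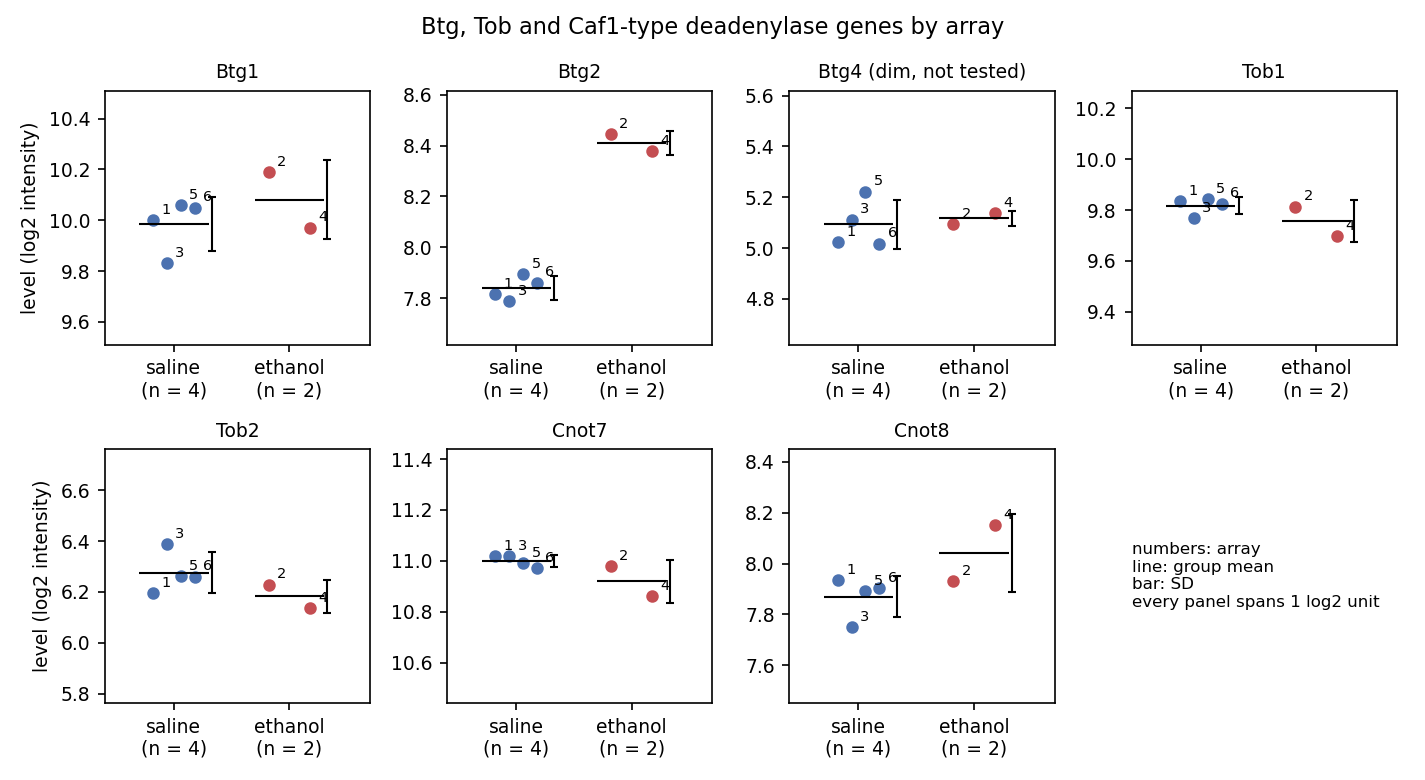
Level (log2 intensity, vertical axis) of the 7 genes that have a probeset of their own, on the 4 saline arrays and the 2 ethanol arrays; numbers name the arrays, lines are group means and bars are SD. The ethanol arrays of Btg2 (8.44 and 8.38) lie above all saline arrays (at most 7.89), and the groups overlap for the other genes.

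Btg1, the closest relative of Btg2 in the family, did not pass. The ethanol arrays read 10.19 (array 2) and 9.97 (array 4), and saline arrays 1, 3, 5 and 6 read 10.00, 9.83, 10.06 and 10.05. Ethanol array 2 was the highest of all arrays, ethanol array 4 lay among the saline arrays, and saline array 3 was the lowest. The change was 0.10 ± 0.08, with a 95% interval of -0.08 to 0.27 (limma adjusted p = 0.670). It was -0.01 without ethanol array 2 and 0.21 without ethanol array 4, so its sign rests on 1 pool. Btg4, which is best known from oocytes, lay between 5.02 and 5.22 on every array, within the background range, and was not tested.

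The Tob genes, whose products also carry motifs that bind poly(A)-binding protein, did not pass. Tob1 read 9.814 on ethanol array 2 and 9.698 on array 4, and saline arrays 1, 3, 5 and 6 read 9.835, 9.769, 9.843 and 9.825. Ethanol array 4 was the lowest and array 2 fell within the saline range. Its change was -0.06 ± 0.06, with a 95% interval of -0.20 to 0.07 (limma adjusted p = 0.726). Tob2 read 6.229 on ethanol array 2 and 6.137 on array 4, with saline arrays 1, 3, 5 and 6 at 6.195, 6.388, 6.262 and 6.260. These values straddle the background guide of 6.21, with 4 of 6 arrays above it. Tob2 had a change of -0.09 ± 0.07, with a 95% interval of -0.24 to 0.05 (limma adjusted p = 0.607).

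The deadenylase pair gave estimates of opposite sign, neither of which passed. Cnot7 read 10.98 on ethanol array 2 and 10.86 on array 4, beside 11.02, 11.02, 10.99 and 10.97 on saline arrays 1, 3, 5 and 6. The saline arrays lay within 0.05 of each other, ethanol array 2 fell among them and ethanol array 4 below. The change was -0.08 ± 0.06 (95% interval -0.21 to 0.06, limma adjusted p = 0.643). Cnot8, its near paralog, read 7.932 on ethanol array 2 and 8.151 on array 4, beside 7.934, 7.751, 7.892 and 7.903 on saline arrays 1, 3, 5 and 6. Only ethanol array 4 stood above the saline arrays. The change was 0.17 ± 0.08 (95% interval 0.005 to 0.34), with an unadjusted limma p of 0.0447 and an adjusted p of 0.392. Btg2 and Cnot8 were the 2 of 6 members at an unadjusted p under 0.05, both higher, where 12.3% of all tested genes were (3.85% higher). The value of Cnot8 was 0.06 without ethanol array 4 and 0.28 without ethanol array 2. A second, dimmer probeset of Cnot8 (mean 6.28) gave -0.08, so that the probesets of this gene disagreed in sign, and their mean gave 0.05.

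Over the 6 tested members the median change was 0.02, with 3 above 0 and 3 below, beside -0.02 over all tested genes. Groups did not overlap for 1 of the 6, Btg2, where 22.6% of all tested genes had groups that did not overlap (7.68% higher with ethanol).

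The ratios of Btg2 to its relatives and to the deadenylases on the same array are given as a description, with no test, since the change of Btg2 was known when the family was chosen. A ratio does not depend on where an array is centred. Relative to Cnot7, the log2 ratio of Btg2 lay 0.62 and 0.67 above its saline mean on ethanol arrays 2 and 4, while the saline arrays lay between -0.07 and 0.06 of it. The mean difference was 0.65. Relative to Cnot8 it was 0.40, made of 0.54 on array 2 and 0.26 on array 4, and 0.65 with the second probeset of Cnot8, a choice made after the data were seen. The ratio of Btg2 to Btg1 was higher by 0.48, that to Tob1 by 0.63 and that to Tob2 by 0.66, and in all 5 ratios both ethanol arrays lay above every saline array.

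The remaining 3 pairs were set against Cnot7. The ratio of Tob1 to Cnot7 had a change of 0.01 (exact permutation p = 0.867). The ratio of Btg1 to Cnot7 had one of 0.17 (exact permutation p = 0.133). The ratio of Cnot8 to Cnot7 had one of 0.25 (exact permutation p = 0.0667, the smallest these arrays allow), made of 0.08 on ethanol array 2 and 0.42 on array 4, where the saline arrays lay between -0.14 and 0.06. With the second probeset of Cnot8 that change was -0.002 (exact permutation p = 0.933), so it rests on the choice of probeset. With 15 ways of choosing 2 of 6 arrays, no permutation p could pass 0.05, even before adjustment over pairs. Adjusted values are not given, because the ratios of Btg2, whose change was known beforehand, would enter the adjustment.

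**Figure D2:**
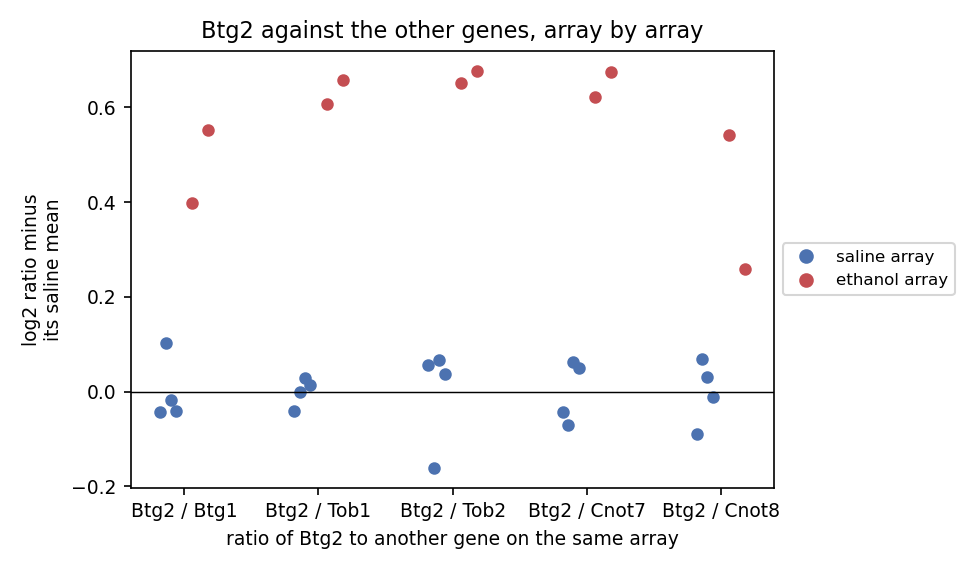
Log2 ratio of Btg2 to each of the other 5 tested members on the same array, minus the mean of that ratio over the 4 saline arrays (vertical axis); each point is an array. The ethanol arrays lie 0.26 to 0.68 above the saline mean and above every saline array in all 5 ratios.

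The upstream sequences of Btg2 and Btg1 are shown because these close relatives differed in their estimates, and because Btg2 carries a full cAMP response element (CRE), the site bound by CREB-family factors. They are the 250 bases before the annotated start, from RefSeq on GRCm38.p6, at chr1:134079156-134079405 on the minus strand for Btg2 and chr10:96616751-96617000 on the plus strand for Btg1, and run 5′ to 3′ along the gene. Capitals mark the full CRE (TGACGTCA, the same on both strands), its half-site (CGTCA or, on the other strand, TGACG, both contained in the full site) and a FoxO-type site (GTAAACA or TGTTTAC).
Btg2: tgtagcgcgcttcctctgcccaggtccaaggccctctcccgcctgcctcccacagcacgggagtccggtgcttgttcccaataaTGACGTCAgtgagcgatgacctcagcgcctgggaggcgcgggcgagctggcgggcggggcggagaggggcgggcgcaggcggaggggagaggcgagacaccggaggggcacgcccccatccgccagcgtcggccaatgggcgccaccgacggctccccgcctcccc
Btg1: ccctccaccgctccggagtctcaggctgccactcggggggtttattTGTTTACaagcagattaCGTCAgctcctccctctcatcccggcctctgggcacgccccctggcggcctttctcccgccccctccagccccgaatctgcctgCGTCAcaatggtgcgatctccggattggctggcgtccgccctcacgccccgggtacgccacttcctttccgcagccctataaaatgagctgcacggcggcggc
In Btg2 the full CRE starts at position -166, counted back from the annotated start, and no FoxO-type letters are in the window. Btg1 holds no full CRE, but half-sites at -187 and -103 and a FoxO-type match at -204. RefSeq entries were at hand for 7 of the 8 members, at 11 starts, and Btg2 is the only member of these with the full CRE in its window. Of 32851 starts of all genes, 1.55% hold the full CRE, 17.8% a half-site and 3.17% the FoxO-type letters in the same length.

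The same letters were counted over all tested genes with an entry, members included, as a background. Among 11775 tested genes with an entry, 329 hold the full CRE, and their median change was -0.008 beside -0.019 for all with an entry. At an unadjusted limma p under 0.05, 4.56% of the genes with the CRE were higher and 6.08% lower, against 3.95% and 8.12% of all with an entry. Of the genes that passed, 0.0803% of all tested genes, Btg2 and Dusp1 hold the CRE, and the call of Btg2 was known beforehand. The FoxO-type letters were in 333 tested genes, with a median of -0.013, 6.31% higher and 9.91% lower at that p, and Txnip was the 1 of them that passed. The half-site was in 3303, with a median of -0.015, 152 higher and 240 lower at that p, and Arrdc3, Btg2, Dusp1 and Nr4a1 passed, of which Nr4a1 fell. A match describes the sequence and shows no binding.

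No subunit of the Ccr4-Not complex passed. For the counts of listed genes that follow, 12.3% of all tested genes had an unadjusted p under 0.05, 3.85% higher and 8.44% lower, and nothing particular to a list is read from its count. All 11 listed subunits were tested and 0 passed in limma, with Cnot8 the 1 at an unadjusted p under 0.05, and the median change was 0.02. The 9 subunits other than Cnot7 and Cnot8 had changes between -0.08 and 0.08, and their 95% intervals together reached from -0.22 to 0.22. The scaffold gene Cnot1 had a change of -0.01 ± 0.06 and Cnot2 one of -0.004 ± 0.060. Cnot6 and Cnot6l, which encode the Ccr4-type nucleases that work beside Cnot7 and Cnot8, had 0.08 ± 0.06 each. Cnot3, which joins the non-catalytic module, had -0.07 ± 0.06, and the ubiquitin ligase subunit gene Cnot4 had -0.08 ± 0.06. Cnot9, Cnot10 and Cnot11 had 0.03, 0.02 and 0.02.

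**Figure D3:**
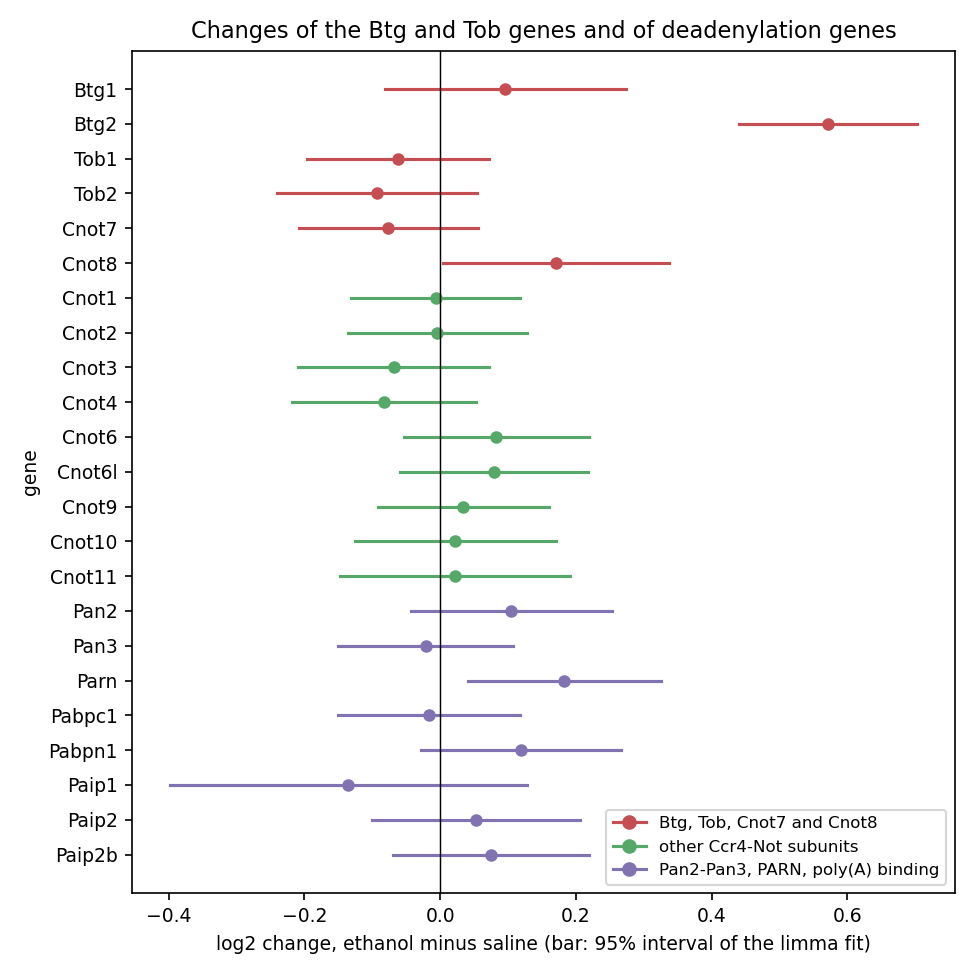
Log2 change, ethanol minus saline (horizontal axis), with its 95% interval from the limma fit, for the 6 tested members (red), the 9 other Ccr4-Not subunits (green) and 8 genes of Pan2-Pan3, PARN and poly(A) binding (purple). The interval of Btg2 (0.44 to 0.70) lies to the right of those of all other genes drawn.

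Other steps of mRNA decay were likewise without a call in limma. Of 8 tested genes of the Pan2-Pan3 and PARN deadenylases and of poly(A) binding, 1 was higher at an unadjusted p under 0.05 and the median was 0.06. It was Parn, a poly(A)-specific nuclease, at 0.18 ± 0.07 (limma adjusted p = 0.285), followed by Pabpn1, the nuclear poly(A)-binding protein gene (0.12 ± 0.07), and Pan2 (0.10 ± 0.07). Of 13 decapping and 5′-to-3′ decay genes, the median change was 0.001 and 1, Lsm1, was lower at an unadjusted p under 0.05. Lsm1, a subunit of the ring that promotes decapping, had -0.23 ± 0.07 (limma adjusted p = 0.194), Eif4enif1 -0.11 ± 0.06 and the exonuclease gene Xrn1 0.09 ± 0.06. Both ethanol arrays lay below all saline arrays for Lsm1 and Eif4enif1 and above them for Xrn1, and of all tested genes 14.9% had such a gap downward and 7.68% upward.

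RNA-binding proteins that recruit Ccr4-Not to chosen messages had a median of 0.06 over 17 tested genes, 12 above 0 and 5 below. None passed in limma, and at an unadjusted p under 0.05 there were 2 higher genes and 0 lower ones. Cpeb1, a regulator of cytoplasmic poly(A) tail length, had 0.32 ± 0.10 (limma adjusted p = 0.243), the microRNA effector gene Tnrc6b 0.21 ± 0.07 (0.248) and Cpeb2 0.11 ± 0.06 (0.530). Among 10 genes listed as partners of Btg and Tob proteins or as targets of these partners, none passed in limma. At an unadjusted p under 0.05, 1 was higher. This was Id3, a target of the BMP-Smad pathway that Tob proteins restrain, at 0.23 ± 0.08 (limma adjusted p = 0.266). Id1 and Id2, on the same list, had 0.06 ± 0.07 and -0.0008 ± 0.0608. Smad9 had -0.14 ± 0.07 and Hoxb9, whose product binds Btg proteins and which lay near background, -0.14 ± 0.07.

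Genes of G1 progression and proliferation, on which Btg2 is known to act, were mostly below 0. Of 17 tested genes 13 lay below 0 and 4 above, with a median of -0.06 beside -0.02 for all tested genes. None passed in limma, and at an unadjusted p under 0.05 there were 4 lower genes and 0 higher ones. Ccnd1, the cyclin that drives entry into S phase and a gene known to be repressed by Btg2, had -0.30 ± 0.06 (limma adjusted p = 0.0827). Ccnd1 read 9.76 on ethanol array 2 and 9.79 on array 4, below 10.05, 10.14, 10.09 and 10.01 on saline arrays 1, 3, 5 and 6. The mitotic kinase gene Cdk1 had -0.21 ± 0.08 (limma adjusted p = 0.285) and the replication licensing gene Mcm2 -0.19 ± 0.07 (0.286), and the fourth, Pcna, the sliding clamp of DNA replication, had -0.20 ± 0.08 (0.327). Beside them, markers of neural progenitors and cerebellar granule cell precursors had a median of -0.09 over 8 tested genes, with Barhl1 at 0.17 ± 0.07 and Barhl2 at -0.27 ± 0.07 the 2 at an unadjusted p under 0.05. Of 5 tested markers of the oligodendrocyte lineage, which also divides at this age, 2 were lower at an unadjusted p under 0.05, with a median of -0.04 over the list. These were the transcription factor genes Olig2, at -0.32 ± 0.07 (limma adjusted p = 0.0827) with groups that did not overlap, and Olig1, at -0.16 ± 0.07 (0.392). The rest of that list lay close to 0, with Pdgfra at 0.01 ± 0.08, Mbp at 0.05 ± 0.07 and Cspg4 at -0.04 ± 0.06. The part of Btg2, or of either set of cells, in the values of the proliferation genes was not tested.

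The listed p53 targets, a class to which Btg2 belongs, went both ways. Of 16 tested genes 7 lay above 0 and 9 below, with a median of -0.03. The list held 20 genes, but Cdkn1a and Bax had no probeset of their own, and Pmaip1 and Fas were dim. None passed in limma, and at an unadjusted p under 0.05 there were 2 higher genes and 1 lower one. Sesn1, an inhibitor of mTORC1, had 0.37 ± 0.07 (limma adjusted p = 0.0631) and Trp53inp1, a p53 cofactor, 0.34 ± 0.08 (0.115), while the polo-like kinase gene Plk3 had -0.20 ± 0.06 (0.232).

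Immediate early genes, the other class that holds Btg2, were also divided. Of 25 tested genes Jun and Dusp1 rose and Nr4a1 fell in limma, and the median was -0.07, with 16 below 0 and 9 above, where 0.0803% of all tested genes passed. At an unadjusted p under 0.05 there were 4 higher genes and 5 lower ones. Fos, Fosl1, Junb, Egr4 and Ier2 were dim. Jun had a change of 1.22 ± 0.13, Dusp1 0.67 ± 0.09 and Nr4a1 -0.47 ± 0.06 (limma adjusted p of 0.00211, 0.0149 and 0.0104). Over all 8 pathway lists, members left out, 0 genes passed in limma without ethanol array 4 (17 at an unadjusted p under 0.05) and 1 passed without ethanol array 2.

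**Figure D4:**
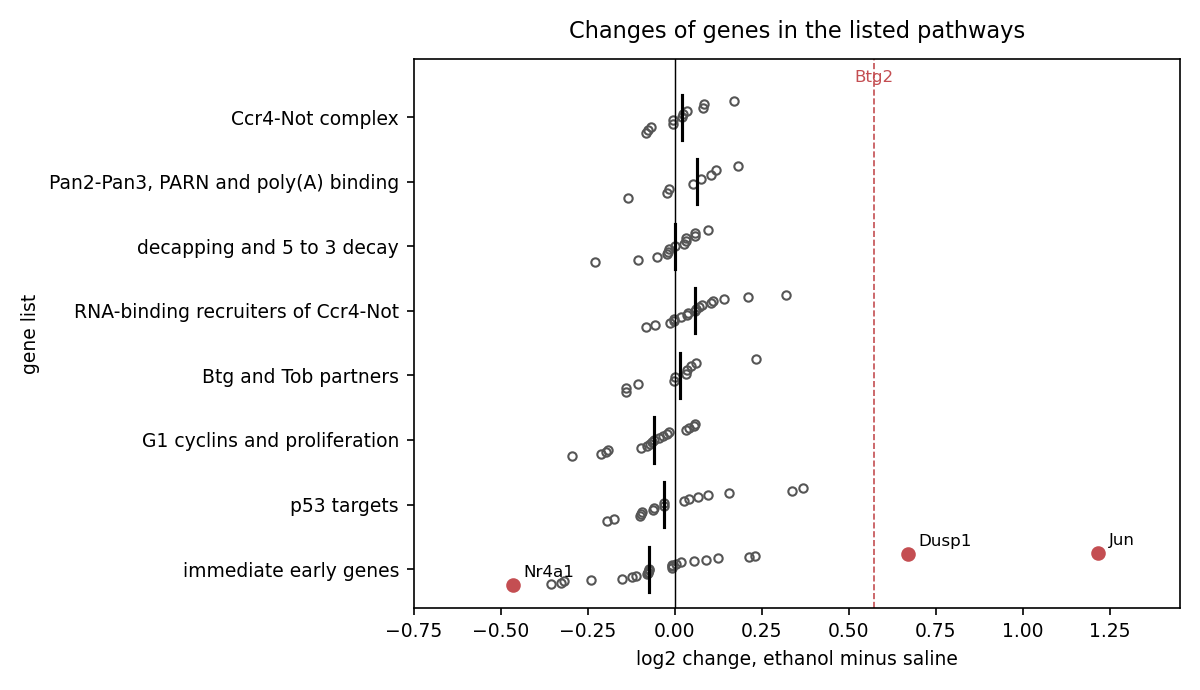
Log2 change, ethanol minus saline (horizontal axis), of each tested gene in the 8 pathway lists; open points did not pass, filled points passed in limma, black bars are list medians and the dashed line is Btg2 (0.57). Jun, Dusp1 and Nr4a1 are the filled points, and every other point lies to the left of the Btg2 line.

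The genes most like Btg2 over the 6 arrays, among 14947 tested non-members, were Tet1 (Pearson r = 0.989), Cyp39a1 (0.985), Fam214a (0.985), Mtus1 (0.983) and Arrdc3 (0.983). These points share their treatment groups, so a high r mostly marks genes whose 2 ethanol arrays stand together above the 4 saline arrays. Of these genes Arrdc3 had a change of 1.02 ± 0.10 and passed in limma, and the others had 0.13 ± 0.06, 0.24 ± 0.06, 0.27 ± 0.06 and 0.19 ± 0.06 without passing. The most opposite were Nr4a1 (r = -0.995), Cdhr4 (-0.990) and Foxa2 (-0.989), of which the last 2 lay near background. In all, 42 genes had an r of 0.95 or more with Btg2 and 115 one of -0.95 or less.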

How the data were processed

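Whole-brain RNA of 6 pools was measured on Affymetrix whole-transcript arrays from 200 ng of RNA, per the labels' protocols. For each array the authors deposited a single value per probeset, read here as log2 intensity because values run from 4.10 to 14.9 and the base is not stated. The submitters' processing notes name Partek 6.6. How background was corrected and arrays normalized is not given in the sources used. The values were used as deposited.

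Of 35556 probesets, 21789 had 1 gene symbol, 1621 had several and 12146 were unnamed. Of the 21789, 21698 matched a current record by gene ID and took its symbol (RefSeq, GRCm38.p6). Each gene was represented by its probeset of highest mean, and 4985 dim genes were left out. The 14953 tested genes were fitted by limma 3.58.1 (lmFit and eBayes, R 4.3.3) on all 6 arrays, with a term for treatment and no other, with 4 residual and 8.10 prior degrees of freedom and two-sided p-values adjusted by Benjamini-Hochberg at a threshold of 0.05. Adjusted p-values come from this fit unless an array left out, another setting or a permutation is named beside them. The fit was tested on simulated data. Replicates are pools of separate animals, and their number limits the precision. Littermates were spread over ethanol and saline pools, but no label pairs the arrays.

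The members and gene lists were chosen with earlier results of these data known. All members were named. From each list, the genes past the threshold or else the 3 of smallest p were named, Ccr4-Not subunits were all open to naming, and the 5 genes most like and 3 least like Btg2 were named by Pearson r. Pcna, Barhl1, Barhl2, Olig1, Olig2 and the genes named from promoter counts were added after their values were seen. So were Id1, Id2, Pdgfra, Mbp, Cspg4, Gh, Cga, Lhb, Fshb, Ghrhr, Fgb, Apoa2, Acta1, Ckm, Myh1 and Mylpf. Alternatives covered the filter, the probeset rule, scaling, array weights, the variance prior and leaving out each array.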

Additional observations from a re-analysis of the deposited data

How the results depend on the processing

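Btg2 kept its sign in all 16 alternatives (log2 change 0.54 to 0.60) and its call in 15. With no variance prior its change of 0.57 had a limma adjusted p of 0.269, and 0 members passed, with 1 at an unadjusted p under 0.05. Its mean ratio to the other members, 0.56, lay between 0.55 and 0.59 in 7 alternatives. No other member passed in any alternative run. Tob1, Tob2 and Cnot7 kept their signs, and Btg1 ranged from -0.0135 (without ethanol array 2) to 0.21 with single arrays left out. Cnot8 kept its sign when read from its brighter probeset or the mean of probesets, while its second probeset alone gave -0.08. The 12 genes called in all (9 higher, 3 lower) became 56 with array weights (21 higher, 35 lower), 52 with the filter on dim genes set at the median (22 and 30), 43 with a trended variance prior (23 and 20), 0 with no variance prior (1535 at an unadjusted p under 0.05), and 4 to 16 with single arrays left out. The 3 calls among listed pathway genes that are not members became 6 with array weights, 6 with the filter on dim genes set at the median, 6 with a trended prior, 0 with no prior (15 at an unadjusted p under 0.05) and 0 to 3 with single arrays left out. Most calls were thus higher in the fit used for the results and lower with array weights or the stricter filter. With arrays centred on the median 7 were higher and 1 lower, and with quantile normalization 11 and 3. The ratio of Cnot8 to Cnot7 was 0.25, and -0.001933 with the second probeset of Cnot8, an alternative chosen after seeing the data. No paired analysis was possible because no replicate number is shared between the groups. Where leaving out an ethanol array left 1 in that group, the lone array was assumed to vary like the saline arrays. The 2 ethanol pools and no stated normalization limit all values, and Tob2 and the second Cnot8 probeset lie near background.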
